A study of Mus musculus with 12 samples.

Results

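The comparison described here sets kidneys without Bmal1 in their tubules against wild-type kidneys in the dark phase of the day. Its members are the 6 libraries taken at zeitgeber time 16 (ZT16), of 12 in the study: 3 labelled knockout (KO, replicates 2, 4 and 6) and 3 labelled wild type (WT, replicates 1, 3 and 5). They were chosen by their labels, with earlier results of these data known. The other 6 libraries were taken at ZT4, in the light, and entered the model for its estimate of the spread. Knockout mice carried the alleles Bmal1lox/lox, Pax8-rtTA and LC1, on the C57BL/6J background. Pax8-rtTA drives a doxycycline-dependent activator in the cells of the renal tubule, and LC1 carries the Cre recombinase that it switches on. Mice of 8 weeks of age drank water with 2 mg/ml doxycycline over 2 weeks. The controls were wild-type littermates taken at the same time of day, and the labels state neither which of these alleles they carried nor whether they received doxycycline. All mice lived on 12 h of light and 12 h of dark, so ZT16 is 4 h after the lights went off. RNA came from whole kidney, which holds glomerular, vascular and immune cells beside the tubules. The labels do not tie each library to an animal of its own, so every p-value measures the spread between libraries, which may be technical in part.

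BMAL1, encoded by Arntl, is a transcription factor at the centre of the circadian clock. It pairs with CLOCK or NPAS2, binds E-box sequences and switches on its own repressors: the PER and CRY proteins, which inhibit the pair, and the REV-ERB receptors, which shut down genes that carry ROR elements. ROR receptors activate the same elements, and the factors DBP, TEF and HLF carry the rhythm on to genes with D-boxes. In the renal tubule the clock is known to give a daily rhythm to the uptake, secretion and metabolism of solutes.

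In the dark phase the knockout libraries differed from wild type in clock genes of most classes and in many genes of tubular metabolism. Npas2, Aqp8, Loxl4, Col6a6 and the fibrinogen gene Fgg were about an order of magnitude higher in the knockout. Genes of drug and fatty acid metabolism, such as Cyp2a5, Ces1d and Nat8f5, were several-fold lower. Of 16150 genes tested, 651 passed at an adjusted p under 0.05 (4.03%), of which 335 rose (2.07%) and 316 fell (1.96%). The test was edgeR's quasi-likelihood test with Benjamini-Hochberg adjustment over all tested genes, and 2591 genes had an unadjusted p under 0.05. Most changes were small, the median size among called genes being 0.76 on the log2 scale. A value given as a number ± SE with no unit is a log2 fold change of KO over WT, and a gene that rose or fell by such a value did so on the log2 scale. Changes of 4-fold or more were seen in 33 genes that rose and 26 that fell, and of 8-fold or more in 15 and 3. WT and KO values were fully separated for 650 of the 651 genes, against 15.9% of all tested genes. The calls were made from the same values, so this separation adds no support to them. Genes named below as the largest changes were picked with this separation as a condition, so it is no separate result for them. Protein-coding genes made up 602 of the 651. In bulk tissue, fewer cells of a type and less RNA per cell cannot be told apart.

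One library, KO replicate 2, stood apart from KO replicates 4 and 6, and list counts and the log2 fold changes of the leading genes are therefore also given without it. Gene counts ranged from 25904425 to 38043491 over the 6 libraries. In a principal component analysis of the 12 libraries (log2 CPM), KO replicate 2 lay at 43.0 on the first axis, with 46.7% of the variance, and KO replicates 4 and 6 at -9.73 and -11.8. WT replicates 1, 3 and 5 lay at 29.8, 25.1 and 49.0, so that on this axis KO replicate 2 lay among the wild-type libraries. Mitochondrially encoded genes took 22.3% of its counts, against 14.1% and 14.0% in KO replicates 4 and 6 and 18.7%, 18.8% and 22.4% in WT replicates 1, 3 and 5. On the second component, with 15.6% of the variance, the genotypes did not overlap: WT lay at 9.05, 11.3 and 5.75 and KO at -34.7, -18.0 and -15.6, with KO replicate 2 the farthest from WT. Its counts differed from those of KO replicates 4 and 6 by a chi-square of 191 and 169 per degree of freedom, against 4.71 between these 2 libraries and 12.0 to 45.2 between WT libraries. Without KO replicate 2 the test called 5099 of 16360 genes (31.2%), 2400 higher and 2699 lower. Counts of list members below stand beside 4.03% called over all tested genes with all libraries and 31.2% without KO replicate 2. All 651 genes were among them, with the same sign, and 396 of them had a larger absolute log2 fold change. Leaving out any other ZT16 library lowered the number of calls, to 439 without WT replicate 1, 421 without WT replicate 3, 380 without WT replicate 5, 389 without KO replicate 4 and 384 without KO replicate 6, and 301 of the 651 genes stayed called in each of the 6 fits. These fits still took part of their spread estimate from the ZT4 libraries. With only the 6 ZT16 libraries 200 of 15605 genes were called, 196 of the 651 among them. Of the 159 called genes named in this text, 76 then lost their call, also some that kept it whichever ZT16 library was left out.

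**Figure D1:**
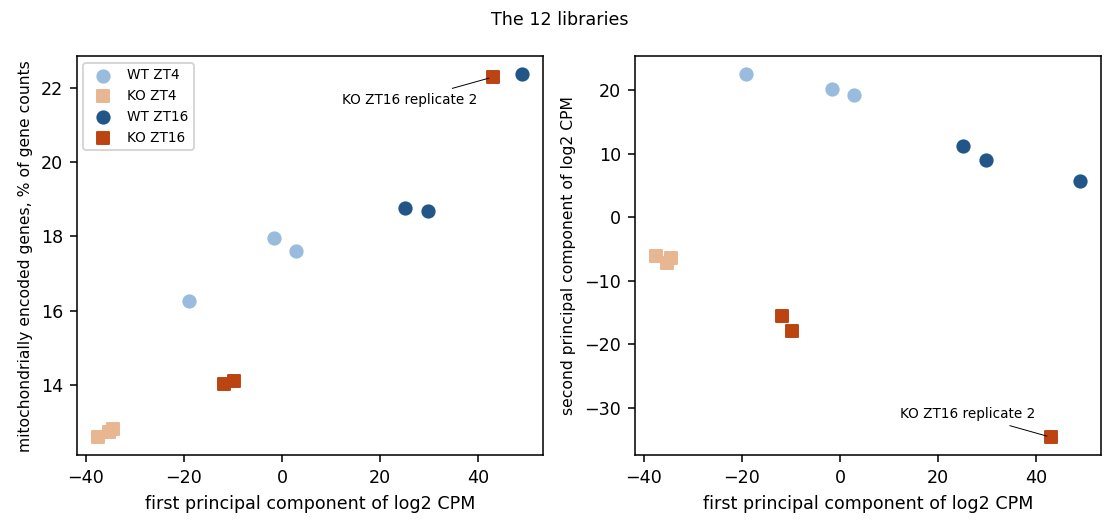
The 12 libraries by the first principal component of log2 CPM and, on the y axes, the share of counts from mitochondrially encoded genes in percent (left) and the second principal component (right). Circles are WT and squares KO, pale at ZT4 and dark at ZT16. KO ZT16 replicate 2 lies at 43.0 on the first component and at 22.3% mitochondrial counts, among the WT ZT16 libraries, while it is the lowest of all libraries on the second component.

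The deleted gene was read first, and its counts do not check the labels. In build GRCm38 Arntl is ENSMUSG00000055116 on chromosome 7, from 113207465 to 113314126, plus strand. It had 10.5, 8.63 and 11.03 CPM in WT and 12.3, 13.4 and 15.01 CPM in KO, always listed here in the order of replicates 1, 3 and 5 for WT and 2, 4 and 6 for KO. CPM are counts divided by the library size in units of 1e6, the size being scaled by the trimmed mean of M-values (TMM). Values in KO lay above those in WT, and the log2 fold change of 0.43 ± 0.15 (3 libraries against 3, SE from the model of all 12) did not pass (adjusted p = 0.151, or 0.0240 without KO replicate 2). The counts cover all exons and all cells of the kidney, and the exons flanked by lox sites are not named in the labels. Directions below therefore rest on the labels.

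The partners of BMAL1 were higher in the knockout. Npas2, whose product can take the place of CLOCK, had 2.89, 3.36 and 2.57 CPM in WT and 24.7, 36.8 and 39.4 CPM in KO. The groups lay far apart, KO replicate 2 being the lowest of the 3 KO libraries. Npas2 rose 11.4-fold (log2 fold change 3.51 ± 0.19, adjusted p = 1.39e-06), and its log2 fold change was 3.67 without that library. Clock, which encodes the usual partner, rose by 0.39 ± 0.09 (adjusted p = 0.0229), a call that was lost when any of KO replicate 4 or WT replicates 1 and 3 was left out (adjusted p 0.0941 to 0.108). Arntl2, a relative of Arntl, lay near 1 CPM in both groups (1.17, 1.23 and 1.01 against 0.958, 1.12 and 1.48).

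Among the repressors of the BMAL1 pair, Cry1 rose while Per3 and Ciart fell. Cry1 had 15.2, 18.5 and 16.3 CPM in WT and 23.8, 30.3 and 30.6 CPM in KO, without overlap, and rose 1.70-fold (log2 0.76 ± 0.13, adjusted p = 0.00619, and 0.86 without KO replicate 2). Per3, a PER protein with a lesser role in the core loop, had 31.2, 34.7 and 33.5 CPM in WT and 18.1, 16.1 and 14.6 CPM in KO. It fell 2.04-fold (log2 -1.03 ± 0.13, adjusted p = 0.000766, and -1.12 without KO replicate 2), and all KO values lay below all WT values. Ciart, also known as Chrono, binds and represses BMAL1. It had only 2.03, 2.998 and 2.18 CPM in WT and 0.547, 0.686 and 0.615 CPM in KO, and the call for its log2 fold change of -1.96 ± 0.42 (adjusted p = 0.0188) was lost without KO replicate 4, KO replicate 6 or WT replicate 3 (adjusted p 0.0609 to 0.0810).

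Per1, Per2 and Cry2 did not pass the test, and KO replicate 2 was the lowest library of all 6 for Per1 and Per2. Per1, a PER gene that responds fast to hormones and light, had 25.8, 18.7 and 17.9 CPM in WT and 7.80, 17.6 and 17.8 CPM in KO. Per2 had 56.1, 53.5 and 57.2 CPM in WT and 33.2, 59.2 and 49.98 CPM in KO, and Cry2 23.7, 23.5 and 19.5 CPM in WT and 22.6, 30.01 and 32.9 CPM in KO. For Per1, KO replicates 4 and 6 lay just below the lowest WT library, while the groups overlapped for Per2 and Cry2. Without KO replicate 2 the log2 fold changes were -0.24, -0.04 and 0.49, and only Cry2 passed (adjusted p = 0.00288).

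Both REV-ERB genes fell. Nr1d2, which encodes REV-ERBβ, had 96.3, 112 and 105 CPM in WT and 33.7, 26.03 and 20.98 CPM in KO. It fell 3.88-fold with no overlap (log2 -1.96 ± 0.14, adjusted p = 1.20e-05, and -2.16 without KO replicate 2). Nr1d1, which encodes REV-ERBα, is known to be low in the dark phase. It had 10.998, 8.15 and 8.67 CPM in WT and 4.82, 5.10 and 4.27 CPM in KO and fell 1.95-fold (log2 -0.97 ± 0.17, adjusted p = 0.00561, and -0.98 without KO replicate 2). The ROR gene Rora did not pass (-0.28 ± 0.10, adjusted p = 0.171), and Rorb stayed under 1 CPM in all 6 libraries.

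The D-box activators Dbp and Tef fell, and Hlf did not pass. Dbp had 23.2, 20.9 and 21.3 CPM in WT and 9.85, 7.93 and 6.08 CPM in KO, with KO replicate 2 the highest of the KO libraries and still far below WT. It fell 2.74-fold (log2 -1.45 ± 0.20, adjusted p = 0.00115, and -1.64 without KO replicate 2). Tef, a factor of the same family, had 223, 245 and 236 CPM in WT and 149.6, 159 and 156 CPM in KO and fell 1.51-fold (log2 -0.60 ± 0.09, adjusted p = 0.00305, and -0.58 without KO replicate 2). Hlf had 78.7, 85.8 and 68.2 CPM in WT and 67.4, 77.8 and 78.98 CPM in KO, and the groups overlapped. Nfil3, whose product competes for D-boxes, and the E-box repressors Bhlhe40 and Bhlhe41 did not pass either (log2 0.33 ± 0.25, -0.49 ± 0.20 and -0.27 ± 0.28). Bhlhe40 had 126, 148 and 121 CPM in WT and 59.000, 111 and 112 CPM in KO, so that KO replicate 2 lay far below the other libraries and KO replicates 4 and 6 just below WT. Dbp shares 18.01% of its exonic bases with another gene, and without the strand setting of the count its reads cannot be told from that gene's.

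**Figure D2:**
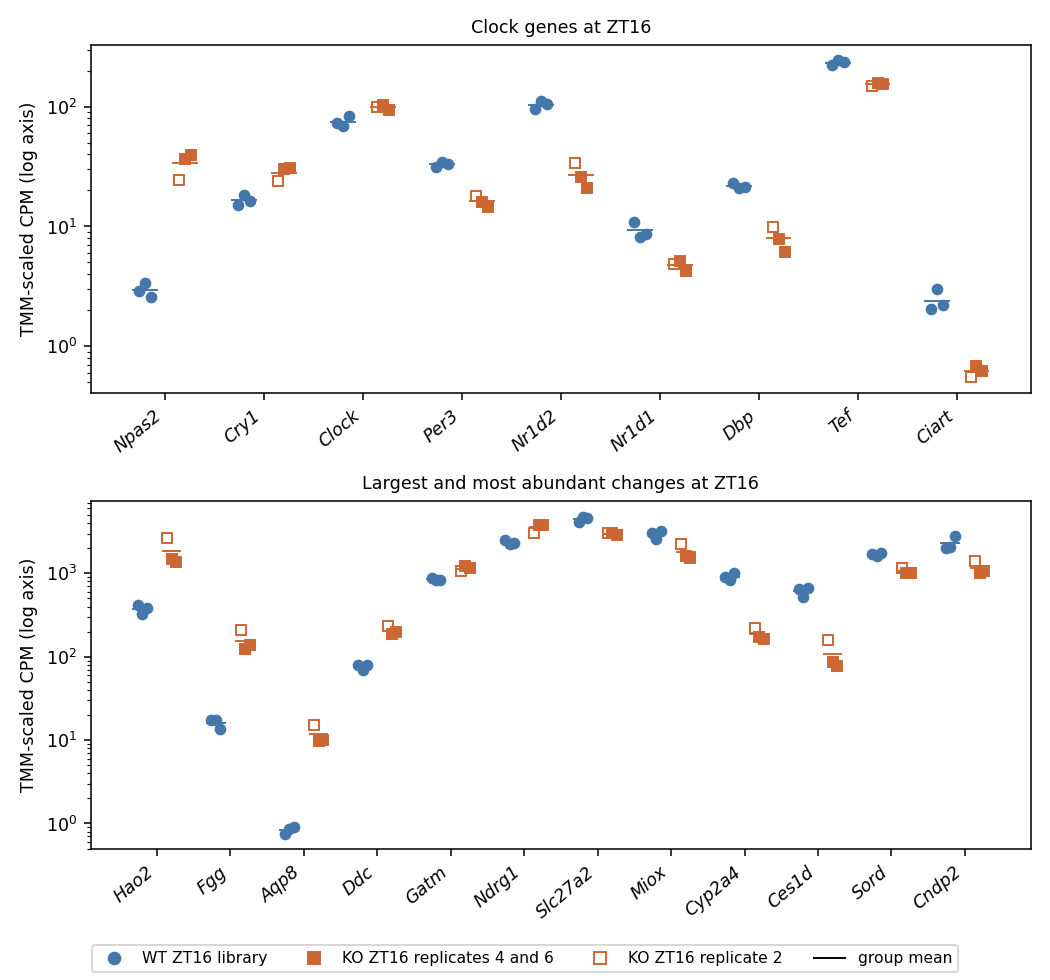
TMM-scaled CPM on log axes for 9 clock genes (top) and 12 of the largest or most abundant changes (bottom) in each ZT16 library, WT as circles and KO as squares, with KO replicate 2 as an open square and group means as lines. For each gene shown the WT and KO libraries do not overlap, with or without KO replicate 2.

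The promoters of called clock genes and of the largest changes were searched for the letters of clock elements. They are shown to let the elements be read beside the direction of each gene. Windows of 250 bases before to 50 after the gene start came from RefSeq (GRCm38.p6), and 11034 of 14072 tested protein-coding genes matched a window. In the stretches below, 5′ to 3′ on the gene's own strand, capitals mark CACGTG (E-box), TTANGTAA (D-box) or TAGGTCA (ROR element core), and each motif was searched on both strands.
Ciart, fell, chr3:95882242-95882369, minus strand: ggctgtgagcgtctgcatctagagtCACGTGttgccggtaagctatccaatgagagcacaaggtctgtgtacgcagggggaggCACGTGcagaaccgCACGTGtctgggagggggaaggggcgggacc
Tef, fell, chr15:81802521-81802576, plus strand: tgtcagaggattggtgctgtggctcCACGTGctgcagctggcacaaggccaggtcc
Nkain1, fell, chr4:130574160-130574215, minus strand: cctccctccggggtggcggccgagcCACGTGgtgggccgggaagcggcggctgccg
Cry1, rose, chr10:85185084-85185139, minus strand: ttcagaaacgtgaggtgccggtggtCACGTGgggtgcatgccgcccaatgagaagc
Aqp8, rose, chr7:123462194-123462249, plus strand: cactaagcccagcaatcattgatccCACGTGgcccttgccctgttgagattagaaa
Per3, fell, chr4:151044791-151044895, minus strand: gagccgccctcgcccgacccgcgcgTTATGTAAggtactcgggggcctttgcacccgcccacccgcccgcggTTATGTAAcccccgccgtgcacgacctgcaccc
Ces1g, fell, chr8:93337409-93337459, minus strand: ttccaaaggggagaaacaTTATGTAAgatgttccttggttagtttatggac
Bhmt, rose, chr13:93637962-93638008, minus strand: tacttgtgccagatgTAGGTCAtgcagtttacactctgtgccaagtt

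Ciart carried 3 E-boxes in its window, starting 116, 58 and 44 bases before the gene start, while Per3 carried 2 D-boxes. An E-box stood in the windows of genes that fell (Tef, Nkain1) and of genes that rose (Cry1, Aqp8). The windows of Nr1d1, Nr1d2, Dbp, Npas2, Fgg and Hao2 held none of the letters searched, which says only that the letters are not in these windows. Over all called genes with a window, the E-box letters stood in 35 of 226 genes that fell (15.5%) and 19 of 231 that rose (8.23%), against 11.3% of all tested protein-coding genes. The ROR element core stood in 3.54% of the genes that fell and 5.19% of those that rose, against 2.40% of all. The D-box letters stood in 4.87% and 2.60%, against 1.97%. A match is a description of the letters and no evidence of binding.

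Several genes known as outputs of clocks in many cell types fell, and none of their list rose. Of 19 tested genes in this list 5 fell (26.3% called, against 4.03% of all tested genes), and without KO replicate 2 there were 7 lower and 1 higher (42.1%, against 31.2%). The median log2 fold change was -0.23, against 0.02 over all tested genes. Klf10, a transcriptional repressor that responds to sugar, had 20.9, 25.7 and 30.97 CPM in WT and 13.2, 12.3 and 12.5 CPM in KO and fell 2.04-fold (log2 -1.03 ± 0.13, adjusted p = 0.000706). Wee1, the kinase that holds back entry into mitosis, had 11.7, 10.7 and 11.96 CPM in WT and 4.79, 6.97 and 5.71 CPM in KO and fell 1.96-fold (adjusted p = 0.00325). The kinase gene Sik1 fell by 0.98 ± 0.18. These 3 genes kept their call whichever ZT16 library was left out, and WT and KO did not overlap in any of them. Tspan4 (-0.67 ± 0.14) and Nampt (-0.80 ± 0.19), the rate-limiting enzyme of NAD salvage, also fell, but lost the call when single libraries were left out (adjusted p up to 0.0807 for Tspan4 and up to 0.153 for Nampt). Nampt had 349.8, 314 and 425 CPM in WT and 292, 169 and 164 CPM in KO, so that KO replicate 2 lay just below WT and the other KO libraries far below.

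Among protein-coding genes that averaged 5 CPM or more, the water channel gene Aqp8 had the largest rise. Aqp8 had 0.756, 0.869 and 0.902 CPM in WT and 15.3, 9.74 and 10.02 CPM in KO, and every KO library lay at more than 10 times the highest WT value. It rose 13.8-fold (log2 3.79 ± 0.32, adjusted p = 2.50e-05, and 3.53 without KO replicate 2). Of all 8 tested aquaporins 1 rose and 1 fell, and without KO replicate 2 there were 1 higher and 5 lower. Both shares lay above those of all tested genes (4.03%, and 31.2% without that library). The fall was that of Aqp11, an intracellular channel of the proximal tubule (-0.48 ± 0.10, adjusted p = 0.0168). This call did not survive the leaving out of KO replicate 4 or 6 or WT replicate 1 or 5 (adjusted p 0.0545 to 0.0750). Aqp1, the main water channel of the proximal tubule, had 1238, 1131 and 1204 CPM in WT and 979.7, 939 and 982 CPM in KO, all KO values lying below all WT values, and missed the threshold (adjusted p = 0.0521, or 0.00751 without KO replicate 2). Aqp2, the vasopressin-regulated channel of the collecting duct, did not pass (-0.27 ± 0.15).

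Genes of the extracellular matrix and its crosslinking were among the largest rises. Of 44 tested collagens and crosslinking enzymes 5 rose and 1 fell (13.6% called, against 4.03% of all tested genes), with a median of 0.14. There were 14 higher and 1 lower without KO replicate 2 (34.1%, near the 31.2% of all tested genes), with a median of 0.31. Loxl4, a lysyl oxidase that crosslinks collagen, had 2.34, 3.19 and 3.16 CPM in WT and 27.6, 28.5 and 32.98 CPM in KO and rose 10.2-fold (log2 3.35 ± 0.19, adjusted p = 1.60e-06, and 3.39 without KO replicate 2). Col6a6, a collagen VI chain, had 0.962, 1.37 and 1.04 CPM in WT and 9.71, 11.8 and 14.6 CPM in KO and rose 10.6-fold (log2 3.40 ± 0.23, adjusted p = 4.22e-06, and 3.52 without KO replicate 2). WT and KO did not overlap in either gene, and both groups were tight. Plod2, a lysyl hydroxylase, had 46.3, 42.8 and 46.4 CPM in WT and 94.98, 106 and 109.8 CPM in KO and rose 2.29-fold (log2 1.196 ± 0.09). Col4a3, a chain of the basement membrane collagen of tubules and glomeruli, had 187, 198 and 198 CPM in WT and 248, 453 and 413 CPM in KO, with KO replicate 2 nearest to WT, and its log2 fold change went from 0.93 ± 0.17 to 1.15 without that library. The fifth rise was Col8a1 (0.52 ± 0.12) and the fall was Col27a1 (-0.93 ± 0.21), both named after their values were seen, and both calls were lost with single libraries left out (adjusted p up to 0.150 and 0.116). The tight junction genes Cldn1 (16.1, 15.8 and 17.1 CPM in WT and 40.7, 31.8 and 35.7 CPM in KO, 2.21-fold higher) and Cldn8 (0.61 ± 0.15) rose among 16 tested claudins (12.5% called, and 31.2% without KO replicate 2), and Cldn8 lost its call in 8 of 12 fits with 1 library left out (adjusted p up to 0.158).

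All 3 fibrinogen genes, which encode the chains of the clotting protein made mainly in liver, rose. Fgg had 17.6, 17.4 and 13.5 CPM in WT and 208, 124 and 138 CPM in KO and rose 9.67-fold (log2 3.27 ± 0.18, adjusted p = 1.71e-06, and 3.002 without KO replicate 2). Fga had 26.8, 29.3 and 26.8 CPM in WT and 96.1, 168 and 166 CPM in KO and rose 5.19-fold (log2 2.37 ± 0.23, and 2.58 without KO replicate 2). For Fgb the libraries had 3.61, 4.90 and 2.95 CPM in WT and 24.1, 16.95 and 16.96 CPM in KO, a rise of 5.02-fold (log2 2.33 ± 0.25, and 2.13 without KO replicate 2). No WT library reached a KO library in any of the 3, although KO replicate 2 was the highest KO library for Fgg and Fgb and the lowest for Fga.

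Other plasma protein genes went both ways: of 26 tested genes of the list, which includes the fibrinogens, 6 rose and 4 fell (38.5% called, and 53.8% without KO replicate 2), and 9 of the 10 calls were kept whichever ZT16 library was left out. The median was 0.29 with all libraries and -0.30 without KO replicate 2, so the middle of the list turned with that library while the calls did not. Ttr, the thyroid hormone and retinol carrier transthyretin, had 68.5, 54.6 and 77.3 CPM in WT and 119, 126 and 146 CPM in KO and rose 1.95-fold (log2 0.96 ± 0.15). Alb, serum albumin, had 16.3, 9.56 and 12.6 CPM in WT and 3.90, 1.59 and 1.08 CPM in KO. It fell 5.85-fold (log2 -2.55 ± 0.34, adjusted p = 0.000847), and without KO replicate 2, the highest KO library, its log2 fold change was -3.24. Serpina1d, of the alpha-1-antitrypsin family, had 66.5, 43.9 and 85.97 CPM in WT and 24.8, 14.3 and 15.9 CPM in KO and fell 3.57-fold (log2 -1.84 ± 0.26, and -2.13 without KO replicate 2). Serpina1a (-1.52 ± 0.24) and the prothrombin gene F2 (-1.95 ± 0.36) fell, and the kininogen gene Kng1 (1.503 ± 0.29) and Apob (0.48 ± 0.10) rose, genes outside the naming rule that complete these counts. Apob lost its call without WT replicate 3 (adjusted p = 0.0760). Serpina1 genes are near-identical copies, so counts may be split between them in ways the files do not show. Fixed markers of hepatocytes were read beside these genes. Their summed level was 76.4 to 107 CPM in WT and 137 to 157 in KO, of which Ttr made up most, Mup20 and Tat were at 0 counts in all 6 libraries, and Ahsg, Cps1 and F9 were below 0.1 CPM in each.

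Ppard, which encodes the fatty acid sensor PPARδ, had 14.8, 13.9 and 13.04 CPM in WT and 54.1, 123 and 120.5 CPM in KO, with KO replicate 2 well below KO replicates 4 and 6. It rose 7.13-fold (log2 2.83 ± 0.27, adjusted p = 9.75e-05, and 3.12 without KO replicate 2). Several genes known as targets of PPAR receptors fell at the same time. Of 24 tested receptors and targets 7 fell and Ppard rose (33.3% called, against 4.03% of all tested genes), and the median was -0.49. There were 13 lower and 2 higher without KO replicate 2 (62.5%, against 31.2%). Angptl4, a secreted inhibitor of lipoprotein lipase, had 35.9, 35.1 and 31.7 CPM in WT and 13.9, 5.68 and 5.28 CPM in KO and fell 4.15-fold (log2 -2.05 ± 0.35, and -2.65 without KO replicate 2). The lipid droplet coat gene Plin2 (-0.57 ± 0.10), the thioesterase gene Acot1 (-0.64 ± 0.11) and the uncoupling protein gene Ucp2 (-1.08 ± 0.23) fell too, Plin2 and Ucp2 being named after their values were seen. Ucp2 lost its call without WT replicate 1 or 3 (adjusted p 0.0901 and 0.0605).

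Genes of fatty acid uptake and beta-oxidation, the main fuel pathway of the proximal tubule, had lower RNA levels at several steps. Of 50 tested genes 11 fell (22.0%) and none rose, and 8 of the 11 kept their call whichever ZT16 library was left out. The median was -0.23, or -0.36 without KO replicate 2, when 33 fell and 3 rose (72.0% called, against 31.2% of all tested genes). For uptake and activation, Slc27a2, a fatty acid transporter and very long chain acyl-CoA synthetase, had 4178, 4788 and 4572 CPM in WT and 3053, 3038 and 2918 CPM in KO and fell 1.503-fold (log2 -0.59 ± 0.08). Genes of the carnitine shuttle fell at 3 points. Cpt1a, which makes acylcarnitine, had 485, 471 and 465 CPM in WT and 315, 351 and 338 CPM in KO and was 1.41-fold lower. Slc25a20, which carries it across the inner membrane, had 74.2, 71.2 and 62.5 CPM in WT and 35.2, 39.8 and 36.7 CPM in KO and was 1.86-fold lower (log2 -0.90 ± 0.09, adjusted p = 9.75e-05). Cpt2, which turns it back to acyl-CoA, had 206, 212 and 199 CPM in WT and 139, 138 and 143 CPM in KO and was 1.47-fold lower (log2 -0.56 ± 0.06). For these 3 genes the KO values lay close together and below every WT value, KO replicate 2 included.

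Genes of carnitine uptake and of the later steps fell as well. Slc22a5, the carnitine transporter OCTN2 of the brush border, had 258, 277 and 294 CPM in WT and 149.9, 141 and 121 CPM in KO and fell 2.01-fold (log2 -1.01 ± 0.09, adjusted p = 6.64e-05). Acadl, the long-chain acyl-CoA dehydrogenase, had 275, 319 and 266 CPM in WT and 165, 193 and 180.5 CPM in KO and fell by 0.68 ± 0.09. Acaa1b, a peroxisomal thiolase, had 262, 213 and 169.7 CPM in WT and 95.6, 102 and 90.8 CPM in KO and fell 2.23-fold (log2 -1.16 ± 0.14). Acsl3, an acyl-CoA synthetase named after its values were seen, fell by 0.71 ± 0.11. Outside this list, Hao2, a peroxisomal oxidase of fatty hydroxyacids, had 416, 323 and 388 CPM in WT and 2647, 1472 and 1371 CPM in KO and rose 4.87-fold (log2 2.28 ± 0.21, adjusted p = 7.16e-05, and 1.91 without KO replicate 2). Hao2 also had the highest level per length of the genes that rose, 538 in RPKM, that is CPM per kilobase of exons (mean over the 6 libraries). In lipid synthesis, Scd1, the stearoyl-CoA desaturase, had 400.04, 301 and 334 CPM in WT and 179.8, 124 and 199 CPM in KO and fell 2.06-fold (log2 -1.04 ± 0.21), the only call among 25 tested genes (a share near that of all tested genes), and it was lost without KO replicate 4 or WT replicate 1 (adjusted p 0.0565 and 0.0670). Pla2g7, a phospholipase named after its values were seen, had 25.8, 22.8 and 22.4 CPM in WT and 76.3, 69.7 and 69.4 CPM in KO and rose 3.03-fold (adjusted p = 1.39e-06).

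Of 28 tested sterol genes 1 rose and 2 fell (10.7% called, and 32.1% without KO replicate 2). Idi1, an early isoprenoid enzyme, had 7.97, 9.61 and 10.5 CPM in WT and 20.2, 17.7 and 16.2 CPM in KO and rose 1.92-fold (log2 0.94 ± 0.14, and 0.84 without KO replicate 2). Insig1, which keeps the SREBP factors inactive, had 61.5, 66.1 and 53.9 CPM in WT and 34.2, 27.8 and 33.96 CPM in KO and fell 1.89-fold (log2 -0.92 ± 0.17, and -0.98 without KO replicate 2). No overlap between groups was seen in either gene. The third call was Sqle, squalene epoxidase (-0.47 ± 0.11), which lost it in 7 of 12 fits with 1 library left out (adjusted p up to 0.134). The median of the list was -0.21.

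**Figure D3:**
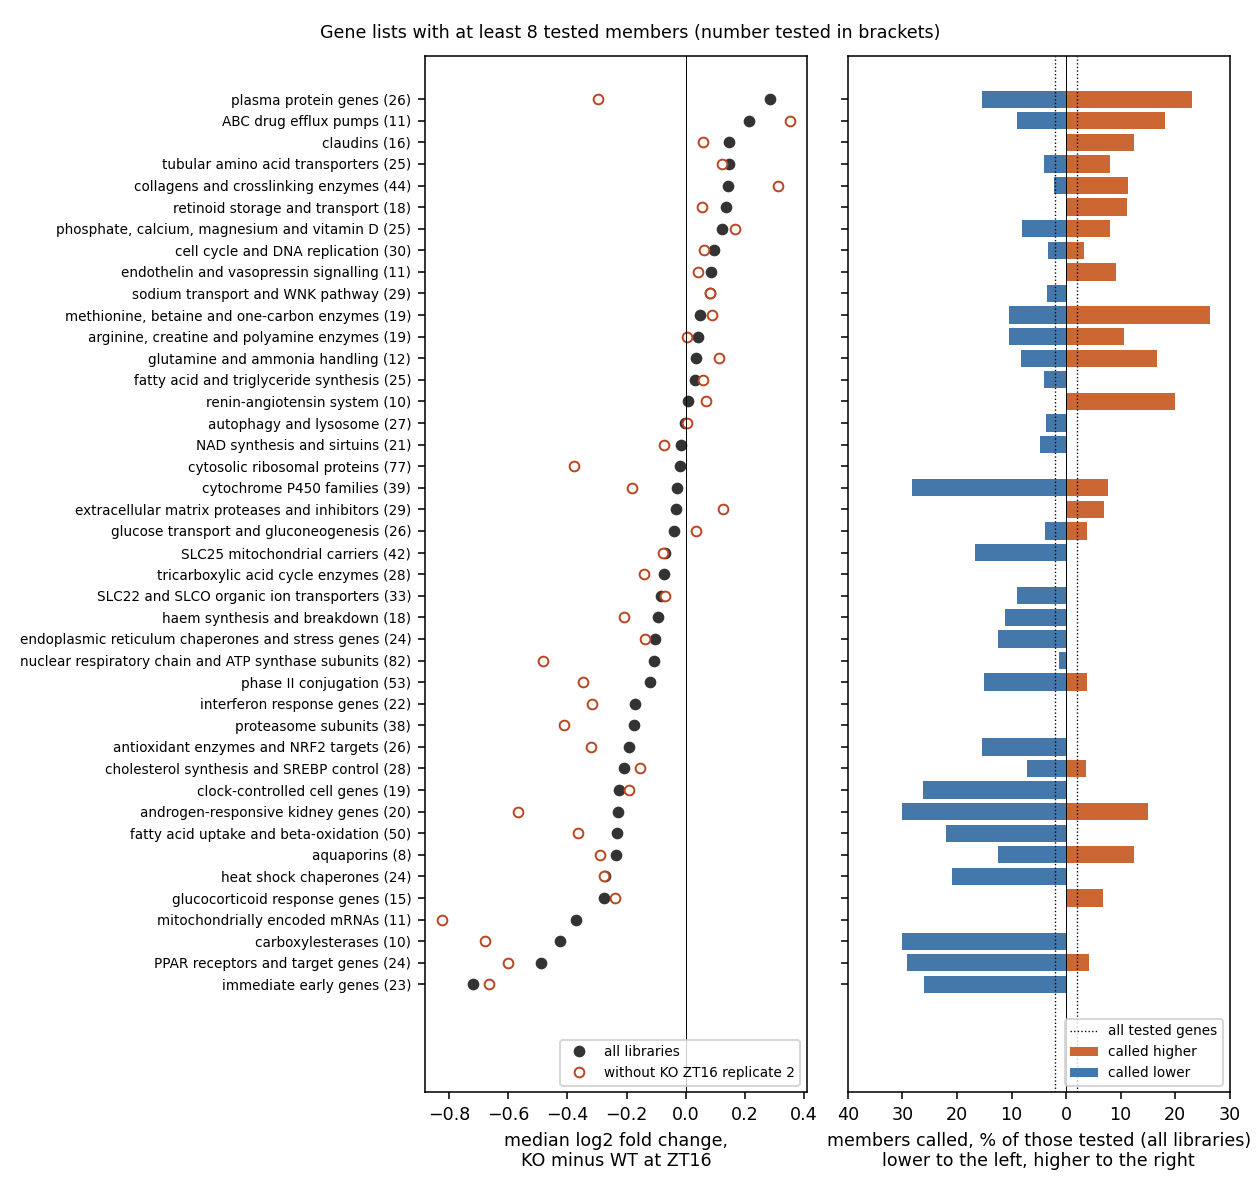
Gene lists with at least 8 tested members. Left, the median log2 fold change at ZT16 with all libraries (filled) and without KO ZT16 replicate 2 (open). Right, the share of tested members called lower (to the left) and higher (to the right) in percent, with dotted lines at the shares over all tested genes, 1.96% and 2.07%. Fatty acid genes show 22.0% called, all lower, while ribosomal protein, proteasome and mitochondrially encoded lists show none and have medians that move down without that library.

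Genes of drug metabolism were among the largest falls. Of 39 tested cytochrome P450 genes 11 fell and 3 rose (35.9% called, against 4.03% of all tested genes), and the median was -0.03. Without KO replicate 2 there were 12 lower and 6 higher (46.2%, against 31.2%), with a median of -0.18. Cyp2a5 had 288, 339 and 295 CPM in WT and 51.7, 27.5 and 20.9 CPM in KO and fell 9.20-fold (log2 -3.20 ± 0.31, adjusted p = 0.000126, and -3.67 without KO replicate 2). Cyp2a4, its near-identical neighbour and a steroid hydroxylase, had 911, 842 and 996 CPM in WT and 222, 174 and 161 CPM in KO and fell 4.93-fold (log2 -2.30 ± 0.12, and -2.46 without KO replicate 2). In both genes KO replicate 2 was the highest of the KO libraries and still far below the WT range. The fatty acid hydroxylases Cyp4a12a (128, 155 and 161 CPM in WT and 50.3, 24.2 and 20.8 CPM in KO, 4.66-fold lower) and Cyp4a12b (23.4, 24.3 and 16.4 CPM in WT and 5.30, 5.68 and 3.51 CPM in KO, 4.40-fold lower) fell together, and as near copies their counts are uncertain as separate genes. Cyp2e1, an abundant enzyme of ethanol and acetone oxidation, had 1992, 2045 and 2039 CPM in WT and 1216, 1036 and 1024 CPM in KO and fell 1.85-fold (log2 -0.89 ± 0.11). Cyp4b1, another abundant family member, fell by 0.63 ± 0.11.

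The 3 P450 genes that rose were Cyp2d12 (1.14 ± 0.21), Cyp2f2 (0.87 ± 0.17) and Cyp2d22 (0.40 ± 0.09), named after their values were seen. Of these, Cyp2d12 had 91.9, 54.3 and 92.3 CPM in WT and 190.3, 155 and 179 CPM in KO and kept its call whichever library was left out, whereas Cyp2d22 lost it in 8 of 12 such fits (adjusted p up to 0.153) and Cyp2f2 without KO replicate 6 or WT replicate 5 (adjusted p 0.0502 and 0.0559). Outside the families counted for xenobiotics, the oxysterol hydroxylase Cyp7b1 also rose (204, 226 and 305 CPM in WT and 478, 366 and 382 CPM in KO, 1.67-fold), a call lost without WT replicate 1 or 3 (adjusted p 0.0717 and 0.0784).

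Conjugating enzymes and esterases fell in blocks of neighbouring genes. Of 53 tested phase II genes 8 fell and 2 rose (18.9% called), against 26 lower and 3 higher without KO replicate 2 (54.7%). With all libraries, 6 of the 8 were members of the Nat8f group of N-acetyltransferases on chromosome 6. Nat8f5 had 92.1, 81.9 and 103 CPM in WT and 19.3, 11.7 and 16.5 CPM in KO and fell 5.85-fold (log2 -2.55 ± 0.27, and -2.73 without KO replicate 2). Nat8f6 had 134, 130.00 and 142 CPM in WT and 57.5, 34.1 and 37.8 CPM in KO and fell 3.13-fold. Nat8f1, which had the highest level of the group per length (224 RPKM), had 428, 386 and 405 CPM in WT and 238, 185 and 165 CPM in KO and fell 2.08-fold. KO libraries lay below WT in each of these genes, but the group shares sequence and exons (Nat8f1 35.5% and Nat8f5 13.7% of exonic bases with another gene), so the single values are uncertain. Nat8f2 (-1.34 ± 0.18), Nat8f3 (-2.24 ± 0.21) and Nat8f7 (-2.48 ± 0.34) completed it. The other 2 falls were the glutathione transferase genes Gsta3 (221, 196 and 243 CPM in WT and 122, 60.05 and 64.2 CPM in KO) and Gstp1 (-0.43 ± 0.10), and Gstm7 (0.81 ± 0.15) was among the rises. Gstp1 lost its call without KO replicate 4 or WT replicate 1 or 5 (adjusted p 0.0672 to 0.115). Nat8f2, Gsta3, Gstp1 and Gstm7 were named after their values were seen.

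Carboxylesterases, which cleave drug and lipid esters, gave 3 falls and no rise among 10 tested genes (30.0% called), against 7 lower and 1 higher without KO replicate 2 (80.0%). Ces1d had 657, 522 and 669.7 CPM in WT and 160.4, 86.1 and 77.9 CPM in KO and fell 5.70-fold (log2 -2.51 ± 0.21, adjusted p = 5.77e-05, and -2.92 without KO replicate 2). Ces1g, whose promoter window is printed above for its D-box, had 48.4, 64.8 and 73.04 CPM in WT and 16.6, 13.7 and 19.6 CPM in KO and fell 3.74-fold (log2 -1.90 ± 0.17, and -1.92 without KO replicate 2). Neither gene's groups overlapped, and the spread within KO was wider for Ces1d. Ces2b fell by 0.70 ± 0.17 and lost its call in 9 of 12 fits with 1 library left out (adjusted p up to 0.186).

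Transporters of drugs and organic ions were called in both directions. Of 33 tested SLC22 and SLCO genes 3 fell and none rose (9.09% called, against 4.03% of all tested genes), and without KO replicate 2 there were 9 lower and 4 higher (39.4%, against 31.2%). Slc22a8, the organic anion transporter OAT3 of the basolateral membrane, had 668, 575 and 557 CPM in WT and 292, 366 and 374 CPM in KO and fell 1.75-fold (log2 -0.80 ± 0.11). Slc22a26, of the same family, had 35.4, 34.8 and 39.2 CPM in WT and 17.2, 13.8 and 10.6 CPM in KO and fell 2.63-fold. With Slc22a5, described above, these kept their calls whichever ZT16 library was left out. Of 11 tested ABC efflux pump genes 2 rose and 1 fell (27.3% called), against 5 higher and 1 lower without KO replicate 2 (54.5%). The 2 genes for the efflux pump P-glycoprotein went opposite ways: Abcb1b had 11.9, 7.87 and 7.91 CPM in WT and 16.96, 20.1 and 18.99 CPM in KO and rose 2.03-fold, while Abcb1a had 9.18, 7.31 and 5.79 CPM in WT and 3.83, 4.03 and 3.98 CPM in KO and fell 1.88-fold. Being close paralogs, they may exchange reads. Abcc3, a basolateral efflux pump, had 2.17, 1.74 and 1.01 CPM in WT and 3.86, 5.29 and 5.42 CPM in KO and rose 2.96-fold (log2 1.57 ± 0.25). Among sugar transporters, Slc2a5, which takes up fructose, had 97.4, 95.2 and 81.95 CPM in WT and 55.2, 47.1 and 46.2 CPM in KO and fell 1.85-fold (log2 -0.89 ± 0.09, adjusted p = 0.000138).

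Amino acid metabolism changed at single, well-separated genes. Bhmt, which remethylates homocysteine with betaine, had 2.34, 1.51 and 1.46 CPM in WT and 16.5, 9.27 and 11.1 CPM in KO and rose 6.95-fold (log2 2.80 ± 0.25, adjusted p = 5.11e-05, and 2.52 without KO replicate 2). Dmgdh, the next enzyme of betaine breakdown, had 92.7, 94.6 and 99.8 CPM in WT and 148, 163 and 162 CPM in KO and rose 1.64-fold (log2 0.72 ± 0.09). The groups were far apart in both. Mtr, which remethylates homocysteine with folate, rose by 0.60 ± 0.12, and Bhmt2 by 0.61 ± 0.13. Both calls depended on single libraries: Mtr lost it without KO replicate 6 or WT replicate 3 (adjusted p 0.0570 and 0.0719) and Bhmt2 without any of 5 ZT16 libraries (adjusted p up to 0.115). In all, 5 of 19 tested methionine, betaine and one-carbon genes rose and 2 fell (36.8% called), against 8 higher and 4 lower without KO replicate 2 (63.2%). The fifth rise was Shmt1 (0.36 ± 0.09) and the falls were Gnmt (-0.40 ± 0.10) and Ahcy (-0.48 ± 0.12), named after their values were seen and lost in 10 to 11 of the 12 fits with 1 library left out (adjusted p up to 0.173).

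In arginine metabolism, Arg2, mitochondrial arginase, had 9.49, 7.54 and 8.57 CPM in WT and 58.2, 38.2 and 35.6 CPM in KO. It rose 5.16-fold (log2 2.37 ± 0.16, adjusted p = 8.81e-06, and 2.11 without KO replicate 2, its highest library), and 19.96% of its exonic bases overlap another gene. Asl, which makes arginine, fell by 0.48 ± 0.08 (221, 234 and 213 CPM in WT and 176, 156 and 147 CPM in KO). Gatm, which uses arginine to make the creatine precursor, had 872, 828 and 839 CPM in WT and 1057, 1212 and 1145 CPM in KO and rose 1.34-fold (log2 0.43 ± 0.08), a call lost without KO replicate 4 or WT replicate 3 or 5 (adjusted p 0.0540 to 0.0578). Slc7a12, an amino acid transporter of the S3 segment, had 24.6, 13.3 and 14.8 CPM in WT and 97.9, 97.8 and 73.3 CPM in KO and rose 5.11-fold (log2 2.35 ± 0.23, and 2.28 without KO replicate 2).

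In ammonia handling the direction differed by enzyme. Glul, glutamine synthetase, had 911, 853 and 729 CPM in WT and 482, 543 and 486 CPM in KO and fell 1.65-fold (log2 -0.72 ± 0.10). Glud1, glutamate dehydrogenase, had 331, 349 and 326 CPM in WT and 428, 463 and 481 CPM in KO and rose 1.36-fold, and the glutamine transporter gene Slc38a3 had 52.8, 40.9 and 43.2 CPM in WT and 80.2, 81.4 and 75.7 CPM in KO and rose 1.73-fold. Each of the 3 separated the genotypes, and each kept its call whichever ZT16 library was left out. With only the 6 ZT16 libraries in the fit, Glud1 lost its call (adjusted p = 0.106). Ddc, which turns L-DOPA into dopamine in the proximal tubule, had 78.6, 69.6 and 80.2 CPM in WT and 233, 189 and 196 CPM in KO and rose 2.71-fold (log2 1.44 ± 0.10, adjusted p = 1.06e-05, and 1.33 without KO replicate 2). Folh1, a brush border carboxypeptidase that cleaves folate and peptide glutamates, had 166, 137 and 192 CPM in WT and 566, 331 and 311 CPM in KO and rose 2.44-fold (log2 1.29 ± 0.20, and 0.95 without KO replicate 2).

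Other abundant genes changed less in fold but at high levels per length. Miox, which starts the breakdown of inositol and is nearly specific to the proximal tubule, had the highest level of all called genes (1443 RPKM, mean over the 6 libraries). Its values were 3082, 2556 and 3260.5 CPM in WT and 2245, 1634 and 1513 CPM in KO, and it fell by 0.72 ± 0.15, a call lost without any of KO replicates 4 and 6 and WT replicates 1 and 5 (adjusted p 0.0710 to 0.0913). Sord, sorbitol dehydrogenase, had 1689, 1615 and 1750.2 CPM in WT and 1149, 1001 and 1015 CPM in KO and fell 1.60-fold (log2 -0.68 ± 0.08, adjusted p = 0.000588). The aspartic protease gene Napsa fell by 0.61 ± 0.10, and Cndp2, a dipeptidase, by 0.99 ± 0.15 (1992, 2093 and 2774 CPM in WT and 1388, 1001 and 1064 CPM in KO). Ndrg1, a stress- and hypoxia-responsive gene, had 2537, 2221 and 2288 CPM in WT and 3068, 3771 and 3817 CPM in KO and rose 1.51-fold (log2 0.60 ± 0.11), with adjusted p = 0.0503 without WT replicate 3. Rdh16f2, a retinol dehydrogenase family member, had 85.4, 56.6 and 61.1 CPM in WT and 149, 162 and 144 CPM in KO and rose 2.24-fold (log2 1.17 ± 0.15).

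Further large changes came from genes of unrelated roles. Ccl28, a chemokine of mucosal epithelia, had 18.2, 16.4 and 31.1 CPM in WT and 73.5, 73.5 and 90.99 CPM in KO and rose 3.62-fold (log2 1.86 ± 0.31). Dcdc2a, a doublecortin family gene, had 8.73, 9.05 and 9.88 CPM in WT and 29.9, 32.1 and 32.8 CPM in KO, with tight groups, and rose 3.42-fold (log2 1.78 ± 0.10, adjusted p = 1.71e-06). Asb11, part of a ubiquitin ligase, rose 4.54-fold (log2 2.18 ± 0.28, and 1.77 without KO replicate 2). On the other side, Angptl7, a secreted angiopoietin-like protein, had 16.4, 15.8 and 20.1 CPM in WT and 3.90, 2.22 and 3.58 CPM in KO and fell 5.43-fold (log2 -2.44 ± 0.24, and -2.62 without KO replicate 2). Nkain1, which interacts with the sodium pump, had 12.9, 9.42 and 9.50 CPM in WT and 2.80, 1.54 and 2.35 CPM in KO and fell 4.79-fold, and Gda, guanine deaminase, had 12.1, 10.98 and 11.1 CPM in WT and 3.83, 2.39 and 2.71 CPM in KO and fell 3.84-fold. None of these genes showed overlap between WT and KO, which the rule for naming them required.

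Mineral and renin-angiotensin genes gave several calls, and sodium genes a single one. Of 25 tested genes of phosphate, calcium, magnesium and vitamin D 2 rose and 2 fell. Without KO replicate 2 there were 10 higher and 4 lower. Of 10 tested renin-angiotensin genes 2 rose, against 4 higher and 2 lower without KO replicate 2. Both lists had shares above those of all tested genes (4.03%, and 31.2% without that library). Cyp24a1, which inactivates vitamin D, had 68.1, 90.6 and 68.4 CPM in WT and 27.02, 24.1 and 19.3 CPM in KO and fell 3.22-fold (log2 -1.69 ± 0.21, adjusted p = 0.000661, and -1.81 without KO replicate 2). Cyp27b1, which activates vitamin D, had 14.2, 16.9 and 28.1 CPM in WT and 7.15, 9.41 and 10.8 CPM in KO and fell 2.16-fold (log2 -1.11 ± 0.25). The groups overlapped in neither gene, but the Cyp27b1 call was lost without KO replicate 4 or WT replicate 5 (adjusted p 0.0884 and 0.111). The phosphate transporter genes Slc34a2 (2.68, 1.96 and 2.81 CPM in WT and 5.88, 6.31 and 8.14 CPM in KO, 2.74-fold higher) and Slc20a2 (0.46 ± 0.07) rose. Agt, angiotensinogen, had 72.6, 77.7 and 72.3 CPM in WT and 138, 129.9 and 120.4 CPM in KO and rose 1.74-fold (log2 0.80 ± 0.10). Among 11 tested endothelin and vasopressin genes, the vasopressin receptor gene Avpr1a was the only one called (9.09%, and 54.5% without KO replicate 2): it had 9.76, 7.45 and 8.25 CPM in WT and 15.5, 18.1 and 16.4 CPM in KO and rose 1.96-fold. Of 29 tested genes of sodium transport and the WNK pathway 1 passed, a share (3.45%) near that of all tested genes, and 10 higher and 2 lower passed without KO replicate 2 (41.4%). The 1 was Slc9a3r1 (-0.27 ± 0.07), a scaffold of the brush border, and it lost the call in 11 of 12 fits with 1 library left out (adjusted p up to 0.187).

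Among retinoid genes, Lrat, Rdh10 and Stra6l rose. Lrat, which esterifies retinol for storage, had 2.82, 2.07 and 1.56 CPM in WT and 5.34, 6.50 and 6.33 CPM in KO and rose 2.82-fold (log2 1.49 ± 0.18). Rdh10, which oxidises retinol, rose by 0.46 ± 0.09 and lost the call without KO replicate 4 or WT replicate 1 (adjusted p 0.0585 and 0.0670). Stra6l, a receptor for the retinol carrier protein, had 15.2, 14.8 and 15.4 CPM in WT and 44.3, 45.6 and 45.9 CPM in KO, with a narrow spread in each group, and rose 2.99-fold (log2 1.58 ± 0.09, adjusted p = 1.39e-06).

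Chaperone, stress and early response genes fell where they were called. Of 24 heat shock chaperones 5 fell and none rose (20.8% called, against 4.03% of all tested genes), with a median of -0.27. Without KO replicate 2 there were 11 lower and 2 higher (54.2%, against 31.2%), with a median of -0.28. Hspa1b, an inducible HSP70, had 74.7, 64.2 and 74.1 CPM in WT and 20.8, 43.4 and 22.2 CPM in KO and fell 2.46-fold (log2 -1.30 ± 0.23), and its near-identical copy Hspa1a had 39.5, 31.98 and 29.8 CPM in WT and 8.79, 23.4 and 11.6 CPM in KO and fell 2.30-fold. KO replicate 4 was the highest KO library in both and still below WT. Dnaja1 (-0.53 ± 0.10), Dnajb1 (-0.55 ± 0.13) and Hsph1 (-0.57 ± 0.14, named after its values were seen), co-chaperones of the same system, fell, and only Hspa1b and Dnaja1 kept their calls whichever ZT16 library was left out. Hspa1a, Dnajb1 and Hsph1 reached an adjusted p of up to 0.156, 0.124 and 0.157 in such fits. Herpud1, a gene of the degradation of misfolded proteins in the endoplasmic reticulum, had 476, 489 and 483 CPM in WT and 285, 282 and 299 CPM in KO and fell 1.67-fold (log2 -0.74 ± 0.08, adjusted p = 0.000119).

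Among antioxidant genes, haem oxygenase Hmox1 (52.9, 47.5 and 53.8 CPM in WT and 28.7, 34.5 and 30.6 CPM in KO) fell 1.64-fold and catalase, Cat (1098, 1102 and 1135 CPM in WT and 854, 781 and 791 CPM in KO), fell 1.38-fold. Alas1, the first enzyme of haem synthesis, had 467, 544 and 478 CPM in WT and 309, 315 and 299 CPM in KO and fell 1.61-fold. In these 3 genes WT and KO did not overlap. Sod1 (-0.39 ± 0.09) and Sod2 (-0.29 ± 0.07) completed the 4 falls among 26 tested antioxidant genes (15.4% called, and 65.4% without KO replicate 2), and both lost their calls in fits with 1 library left out (adjusted p up to 0.119 and 0.116).

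Immediate early genes, which respond within minutes to signals and to handling, had the lowest median of the lists drawn, -0.72, with 6 of 23 called lower (26.1%) and none higher. Without KO replicate 2 there were 11 lower (47.8%), with a median of -0.66. Egr2, a zinc finger factor, had 5.98, 3.76 and 3.33 CPM in WT and 0.650, 0.658 and 0.615 CPM in KO and fell 6.74-fold (log2 -2.75 ± 0.44, adjusted p = 0.00275). Ier3 had 52.4, 63.1 and 46.2 CPM in WT and 29.8, 37.03 and 31.5 CPM in KO and fell 1.65-fold. These 2 kept their calls whichever ZT16 library was left out. Maff (-1.27 ± 0.28) and Nr4a3 (-1.26 ± 0.29) fell and lost the call with single libraries left out (adjusted p up to 0.113 and 0.101). Cdkn1a, which encodes the cell cycle inhibitor p21, had 5.499, 5.41 and 5.62 CPM in WT and 13.3, 18.8 and 17.1 CPM in KO and rose 2.99-fold (log2 1.58 ± 0.16, adjusted p = 0.000119), while Ccnd1, cyclin D1, fell by 0.53 ± 0.12, a call lost without WT replicate 1 or 3 (adjusted p 0.0899 and 0.0859).

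Androgen-responsive kidney genes, mostly of the proximal tubule, gave 6 falls and 3 rises among 20 tested (45.0% called). Cyp2a4, Cyp4a12a, Cyp2e1 and Cyp4b1, all described above, were among the falls, and Slc7a12 and Cyp7b1 among the rises. Prlr, the prolactin receptor, named after its values were seen, had 45.4, 23.7 and 25.5 CPM in WT and 73.7, 92.6 and 76.8 CPM in KO and rose 2.57-fold, a call lost without WT replicate 3 or 5 (adjusted p 0.0519 and 0.0568). The median of the list was -0.23, or -0.57 without KO replicate 2, and 11 members were then called lower and 6 higher (85.0%).

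Some large fold changes stood at very low levels, where few counts set the value. Vmn1r32, a vomeronasal receptor gene, had 0.103, 0.0280 and 0.0347 CPM in WT and 2.33, 2.06 and 2.24 CPM in KO and rose 38.5-fold (log2 5.27 ± 0.58). Fhad1 had 0.206, 0.224 and 0.382 CPM in WT and 1.92, 2.91 and 3.51 CPM in KO and rose 10.2-fold, and Grid1, a glutamate receptor family gene, had 0.447, 0.392 and 0.277 CPM in WT and 1.74, 2.94 and 1.92 CPM in KO and rose 5.89-fold. Tmprss9, a membrane serine protease, had 1.48, 2.44 and 1.94 CPM in WT and 7.39, 8.12 and 7.99 CPM in KO and rose 3.98-fold (log2 1.99 ± 0.18). Among falls, Anks1b had 1.75, 2.38 and 2.32 CPM in WT and 0.308, 0.0823 and 0.253 CPM in KO and fell 10.3-fold (log2 -3.37 ± 0.49). Prkag3, a regulatory subunit of AMP-activated kinase, had 8.56, 5.72 and 7.21 CPM in WT and 1.03, 1.59 and 1.56 CPM in KO and fell 5.11-fold, and Hrg, histidine-rich glycoprotein, had 4.74, 8.49 and 7.04 CPM in WT and 1.505, 1.43 and 1.37 CPM in KO and fell 4.71-fold. Each separated the genotypes in all 6 libraries, which the rule for naming them required.

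KO replicate 2 decided some values. Over the 651 called genes it was the KO library nearest to WT for 350, the farthest for 219 and between the other 2 for 82. The called genes whose log2 fold change moved most without it included Apcs, the pentraxin gene, which had 1.03, 0.981 and 1.18 CPM in WT and 5.20, 2.11 and 2.53 CPM in KO and went from 1.62 ± 0.34 to 1.11. Fabp7, a fatty acid binding protein, had 6.01, 6.39 and 8.39 CPM in WT and 31.3, 15.5 and 15.3 CPM in KO and went from 1.58 ± 0.25 to 1.14. In the other direction, Thbs4, a matrix thrombospondin, had 1.34, 1.35 and 1.01 CPM in WT and 0.274, 0.110 and 0.0723 CPM in KO and went from -3.005 ± 0.42 to -3.68, and the chemokine gene Cxcl1 had 4.74, 4.04 and 4.89 CPM in WT and 2.15, 0.631 and 1.27 CPM in KO and went from -1.77 ± 0.35 to -2.31. The Apcs call was lost without any of the 3 WT replicates (adjusted p 0.0572 to 0.0821). In Apcs and Fabp7 KO replicate 2 was the highest of all libraries, while in Thbs4 and Cxcl1 it lay between WT and the other KO libraries.

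A further 4440 genes passed only without KO replicate 2, 2061 higher and 2379 lower, with a median size of 0.44 on the log2 scale. For 3731 of them the genotypes overlapped when all 6 libraries were read. Inmt, an amine methyltransferase, had 1797, 1657 and 2199 CPM in WT and 1603, 551 and 577 CPM in KO: KO replicate 2 lay just below WT and the other KO libraries far below it. Its log2 fold change was -1.05 ± 0.33 with all libraries (adjusted p = 0.120) and -1.75 without KO replicate 2 (adjusted p = 3.41e-06). The same pattern was seen in Aspa, aspartoacylase (179, 176 and 241 CPM in WT and 153, 65.7 and 68.2 CPM in KO), Nat8 (367, 304 and 439 CPM in WT and 280.2, 118 and 143 CPM in KO) and Hsd11b1, which regenerates active glucocorticoid (148, 181 and 281 CPM in WT and 144, 69.8 and 84.8 CPM in KO). Among genes higher without it were Wdtc1 (34.1, 33.9 and 23.7 CPM in WT and 29.8, 66.7 and 71.5 CPM in KO) and Dag1, dystroglycan (43.2, 39.01 and 31.5 CPM in WT and 34.9, 77.6 and 78.9 CPM in KO), in which KO replicate 2 lay within the WT range.

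Genes added as higher had a greater median length than genes added as lower. Median exonic length was 6224 bases for the genes added as higher and 2742 for those added as lower, against 4016 for all tested genes. For the 335 and 316 genes called with all libraries it was 4269 and 3307. KO replicates 4 and 6, which remain, had the lowest mitochondrial shares of the 6 libraries (14.1% and 14.0%), and the part of this in the result was not tested. With offsets for exonic length and GC content in the fit, 1030 genes were called with all libraries (6.38%) and 3585 without KO replicate 2 (21.9%), and 611 of the 651 genes stayed called in the latter fit.

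**Figure D4:**
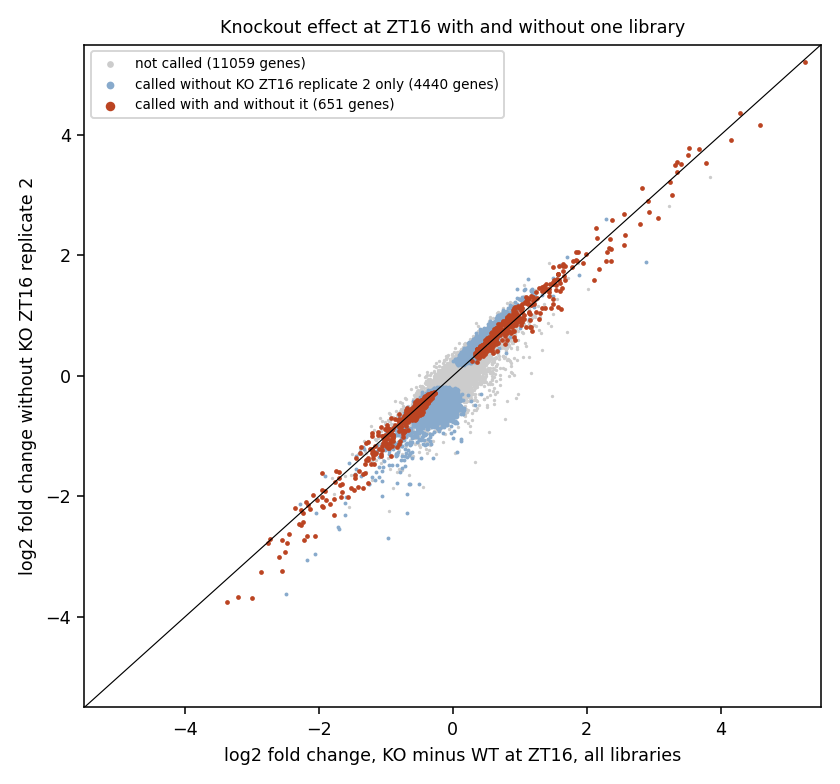
Log2 fold change of KO against WT at ZT16 for each gene tested both ways, with all libraries on the x axis and without KO ZT16 replicate 2 on the y axis, where the line marks equal values. The 651 genes called both ways (red) lie along the line, and the 4440 called only without it (blue) lie mostly within 2 log2 units of 0. One gene, BC018473, at -8.78 and -11.5, lies outside the axes.

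Broad lists of housekeeping genes showed the same dependence. None of 77 cytosolic ribosomal protein genes passed with all libraries (median -0.02), and 42 were called lower without KO replicate 2 (median -0.38). For 82 nuclear respiratory chain and ATP synthase subunits the counts were 1 and 63 lower, with medians of -0.11 and -0.48. The 1 was Cox6a2 (1.07, 1.26 and 0.971 CPM in WT and 0.445, 0.604 and 0.615 CPM in KO), a low-level subunit, and it lost its call without any of the 5 other ZT16 libraries (adjusted p up to 0.125). Among 38 proteasome subunits 0 were called with all libraries, and 27 were lower and 1 higher without it. Of 11 mitochondrially encoded mRNAs 0 and 8 were lower, and of 28 tricarboxylic acid cycle enzymes 0 and 11, with 2 higher. For the 4 lists with no call by edgeR, in the order ribosomal, proteasome, mitochondrially encoded and tricarboxylic acid cycle, the members with an unadjusted p under 0.05 numbered 2, 8, 0 and 3, DESeq2 called 1, 2, 0 and 1, and limma voom called none. Without KO replicate 2 the shares called were 54.5% for ribosomal, 76.8% for respiratory chain and 73.7% for proteasome genes. They were 72.7% for mitochondrially encoded and 46.4% for tricarboxylic acid cycle genes, against 31.2% of all tested genes. Of the 42 tested SLC25 mitochondrial carriers 7 were lower and none higher with all libraries (16.7%, against 4.03% of all tested genes). Only 2 of the 7 kept their call whichever ZT16 library was left out. Without KO replicate 2 there were 10 lower and 3 higher (31.0%, near the 31.2% of all tested genes). Among these, Slc25a42, the coenzyme A carrier, had 109, 87.01 and 91.1 CPM in WT and 50.5, 57.6 and 64.8 CPM in KO and fell 1.66-fold.

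Few markers of kidney cell types passed the test. Summed proximal tubule markers lay at 13363 to 14945 CPM in WT and 11320 to 13490 in KO, with overlap, and Miox was the only one of 11 called. Summed thick ascending limb markers lay at 8293 to 10169 and 7863 to 9684 CPM. Distal convoluted tubule markers lay at 1170 to 1310 in WT and 1321 to 1541 in KO, without overlap. None of the 7 passed singly with all libraries, while 5 were called higher without KO replicate 2 (71.4%). Intercalated cell markers (462 to 508 and 519.7 to 563) did not overlap either, and Slc4a9, an anion exchanger of the B type cell, rose by 0.50 ± 0.11, a call lost without any of KO replicates 4 and 6 and WT replicates 3 and 5 (adjusted p 0.0906 to 0.119). Macrophage markers were lower, at 156 to 174 CPM in WT and 120.4 to 146 in KO, with Csf1r, the receptor that macrophages need, at -0.33 ± 0.08 (adjusted p = 0.0360, lost in 8 of 12 fits with 1 library left out, up to 0.147). With 3 libraries against 3 the exact two-sided permutation test of such sums cannot go below p = 0.1, the value it gave for the distal convoluted tubule, intercalated cell, macrophage and hepatocyte sums.

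Sums for other cell types overlapped between the genotypes. Summed podocyte markers lay at 203 to 250.3 CPM in WT and 204 to 273 in KO, endothelial markers at 553 to 582 and 524 to 563, and lymphocyte markers at 20.04 to 25.2 and 12.6 to 22.0. Summed adipocyte markers lay at 117 to 145 CPM in WT, 247.7 in KO replicate 2 and 69.4 and 119 in KO replicates 4 and 6, so that library held the highest level of fat cell transcripts. Steroidogenic markers of the adrenal cortex summed to 3.51 to 5.54 CPM over the 6 libraries, with Cyp11b1 and Cyp11b2 at 0. Of 14 tubular injury markers Cdkn1a rose and Havcr1 and Il34 fell (Il34 losing its call in 7 of 12 fits, adjusted p up to 0.137), and the summed level lay at 1659 to 1876 in WT and 1325 to 1987 in KO. Havcr1, kidney injury molecule 1, had 1.62, 3.08 and 1.77 CPM in WT and 1.197, 0.686 and 0.759 CPM in KO, and the call for its log2 fold change of -1.31 ± 0.32 (adjusted p = 0.0357) was lost in 8 of 12 fits with 1 library left out (adjusted p up to 0.158). The part of these cell types in the gene results was not tested.

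Most of the dark phase changes had the same sign in the light. At ZT4, 531 genes were called in the same fit (3.29%), and 338 of the 651 genes called at ZT16 were among them, which is 51.9% of the ZT16 calls and 63.7% of the ZT4 calls. The ZT4 log2 fold change had the same sign for 632 of the 651, and no gene was called at both times with opposite signs. Ddc rose by 0.45 ± 0.10 at ZT4 and by 1.44 ± 0.10 at ZT16, and its difference missed the threshold (adjusted p = 0.0748). Egr2 had 0.35 ± 0.51 at ZT4 (adjusted p = 0.722), and its difference between the times did not pass (adjusted p = 0.608). So a call at 1 time alone does not show that the effect differs.

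The difference between the times was tested by the interaction, which called 3 of 16150 genes (0.0186%), Stra6l and Cry1 among them. For Stra6l the ZT4 values were 34.5, 30.03 and 32.3 CPM in WT and 38.1, 45.2 and 38.3 in KO, and the knockout effect was 0.33 ± 0.09 at ZT4 against 1.58 ± 0.09 at ZT16 (difference 1.25 ± 0.12, adjusted p = 0.00134). In WT, Stra6l was lower at ZT16 (15.2, 14.8 and 15.4) than at ZT4, and in KO it was near the same level at both times. Cry1 had 4.27, 3.01 and 3.74 CPM in WT and 27.995, 25.9 and 23.4 in KO at ZT4, an effect of 2.80 ± 0.15 against 0.76 ± 0.13 (difference -2.04 ± 0.20). For Cry1 the KO level at ZT4 lay near that at ZT16, and the WT level at ZT4 was the lowest of the 4 groups. Without KO ZT16 replicate 2 the interaction called 8 genes (0.0489%), and without KO ZT16 replicate 4 it called 5 (0.0305%).

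**Figure D5:**
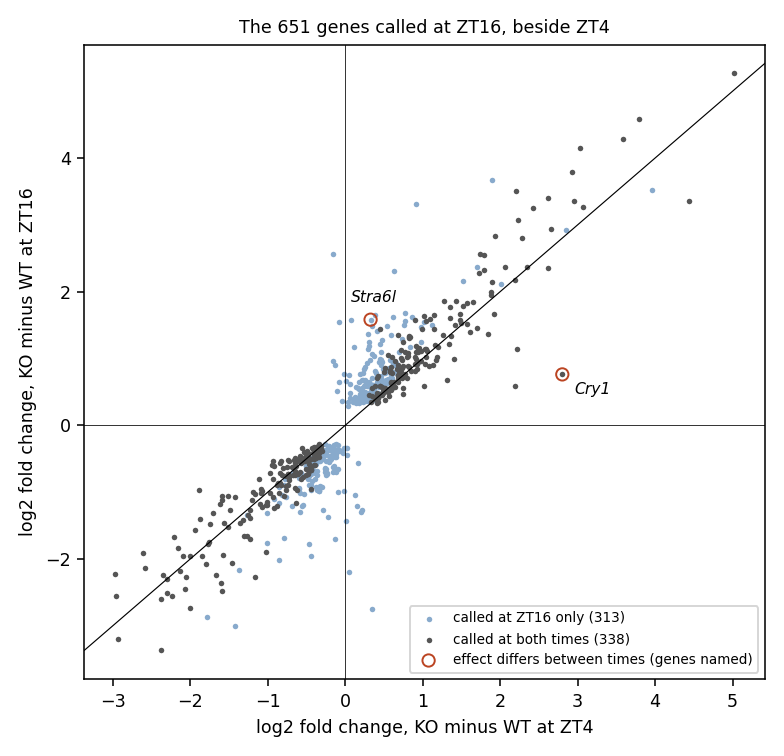
Log2 fold change of KO against WT at ZT4 (x axis) and at ZT16 (y axis) for the 651 genes called at ZT16, dark where also called at ZT4 (338 genes) and light where not, with a line at equal values. The rings mark Stra6l, above the line, and Cry1, below it, whose effects differ between the times.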

How the data were processed

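RNA of 12 whole-kidney libraries in 4 groups of 3 was analysed. The deposited files hold whole-number counts of reads per gene. Per the submitters' processing notes, the authors trimmed reads with cutadapt 1.2.1, aligned them to GRCm38 with TopHat2 2.0.9 and counted them with HTSeq 0.5.4p3, and went on with edgeR and limma in R 3.1.1 (results not used here). Libraries were stranded, per the labels' protocols. How HTSeq treated strand and overlaps, and with which annotation, is not given in the sources used here. GENCODE M21 named 37607 of 38924 gene IDs. The 5 HTSeq summary rows entered neither library sizes nor tests (at ZT16, 3.50% to 5.15% without a feature and 33.3% to 43.0% not uniquely aligned). Gene counts summed to 25904425 to 38043491 at ZT16.

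Genes passing filterByExpr over the 4 groups (16150) were TMM-scaled, and the quasi-likelihood test of edgeR 4.0.16 (R 4.3.3) was run on 1 model of 12 libraries with 8 residual degrees of freedom. The contrasts were KO against WT at ZT16, the same at ZT4, and their difference, each with Benjamini-Hochberg adjustment over all tested genes and a threshold of 0.05. Fold changes are fitted, with SE. Replicates were checked by chi-square over genes with at least 20 counts, and none agreed within counting noise. The fit was tested on simulated data. RPKM used exonic length from GENCODE. Sums of markers were compared by exact permutation. The members and the 64 gene lists were chosen with earlier results of these data known, and lists are described by counts and medians, with no set test.

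Genes were named by rule: the clock lists, the 15 largest changes each way among called protein-coding genes averaging 5 CPM or more without overlap (6 each way at 1 to 5 CPM), the 10 called genes each way with the highest RPKM, up to 4 per list by adjusted p, those that moved most without KO ZT16 replicate 2 (6 each way called, and 8 each way called only without it), and the interaction calls. Some genes the rule allows are not reported here, and genes outside it are marked. Alternatives were other scalings, filters and tools, offsets for length and GC content, and each library left out. The offsets without KO ZT16 replicate 2 were added after seeing the data.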

Additional observations from a re-analysis of the deposited data

Results flagged for a closer look

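Effects of the knockout differed between the dark and the light phase for Stra6l and Cry1, among others, by edgeR's quasi-likelihood test of the difference itself with Benjamini-Hochberg adjustment over 16150 genes. For Stra6l the effect at ZT16 minus that at ZT4 was 1.25 on the log2 scale, and for Cry1 it was -2.04, each with an adjusted p of 0.00134. In all 3 libraries per group the direction held at both times for both genes. The WT and KO libraries stood further apart at ZT4 for Cry1 and at ZT16 for Stra6l.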

How the results depend on the processing

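At ZT16, the 651 calls became 1008 with DESeq2, 1030 with length and GC offsets, 3585 with those offsets and without KO ZT16 replicate 2, 4102 with only the 5 other ZT16 libraries, 200 with only the 6 ZT16 libraries, and 309 at an adjusted p under 0.01. With 1 library left out they ranged from 380 to 5099, the latter without KO ZT16 replicate 2. Other scalings, filters, limma voom and leaving out mitochondrially encoded genes gave 502 to 660. Of the 651 genes 142 stayed called in all 23 refits, and no call named here changed sign in any. The log2 fold changes of 2 genes that were not called did change sign: Hlf was 0.027 with only the 5 other ZT16 libraries and ranged from -0.15 to 0.014 with 1 library left out, and Arntl2 ranged from -0.12 to 0.17. The causes were not tested. The interaction called 18 genes with DESeq2, 9 with the offsets, 21 with the offsets and without KO ZT16 replicate 2, and 3 to 8 with 1 library left out, against 3.

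No paired analysis was possible because WT libraries carry numbers 1, 3 and 5 and KO libraries 2, 4 and 6, which concerns the ZT16 comparison. For the interaction, a replicate block within genotype left 1 gene called. The numbers do not pair the samples: deviations of same-numbered libraries at ZT4 and ZT16 correlated over genes at -0.44 to 0.07, and 1 of 6 ZT16 libraries (KO replicate 2) correlated best with its own number.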

Other observations

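Further called genes, most of them from lists with other members described above, showed no overlap between the genotypes. Slc2a1, the glucose transporter GLUT1, had 37.5, 33.7 and 30.97 CPM in WT and 40.7, 50.2 and 47.7 CPM in KO and a log2 fold change of 0.44 ± 0.10 (edgeR adjusted p = 0.0237). Adamts15, a matrix protease, had 14.9, 17.3 and 13.9 CPM in WT and 21.99, 28.2 and 30.96 CPM in KO and rose 1.76-fold (log2 0.81 ± 0.15, adjusted p = 0.00777). Slc38a2, a transporter of neutral amino acids, fell by 0.38 ± 0.09 (adjusted p = 0.0396), and Azin1, which stabilises ornithine decarboxylase, fell by 0.32 ± 0.08 (adjusted p = 0.0432). Dnajb9, a chaperone of the endoplasmic reticulum, fell by 0.44 ± 0.09 (adjusted p = 0.0138). These calls were lost when single libraries were left out, except that of Adamts15: Slc2a1 without KO ZT16 replicate 4 or 6 or WT ZT16 replicate 3 or 5 (adjusted p 0.0874 to 0.128), Dnajb9 without KO ZT16 replicate 4 or 6 or WT ZT16 replicate 3 (0.0505 to 0.0683), and Slc38a2 and Azin1 in 10 of 12 such fits each (up to 0.147 and 0.163). Interferon response genes gave no call by edgeR, DESeq2 or limma voom among 22 tested, with 2 members at an unadjusted p under 0.05.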
